A study of Mus musculus with 7 samples.

Results

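The replication licensing and MCM helicase genes examined here were Mcm2, Mcm3, Mcm4, Mcm5, Mcm6, Mcm7, Mcm10, Cdc6, Cdt1 and Cdc45. They are 10 of the 19026 genes named on the array platform, found by gene symbol, and have 23 of the table's 45128 probes. The arrays held RNA from RAPPD-treated (4 samples) and vehicle-treated (3 samples) allografts of NPK mouse prostate tumours carried by athymic nude hosts (NU/J), which have no functional thymus. Dosing was once a day over 5 days in both groups, and tumours were taken on the last of these. The labels spell out neither RAPPD nor the alleles of NPK, and they give no age. In the published work on this model, RAPPD stands for rapamycin, an inhibitor of the growth kinase mTOR, combined with a MEK inhibitor, and NPK tumours arise from prostate epithelium through an inducible Cre that acts in luminal cells. Whether tumours within a group had separate donors or hosts is not labelled, so p-values measure only the spread between these samples, which may be technical.

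Before S phase, the origin recognition complex together with Cdc6 and Cdt1 loads the ring of Mcm2 to Mcm7 onto origins, the step known as licensing. In S phase the kinase Cdc7 with its partner Dbf4, and the cyclin-dependent kinases, turn the ring into an active helicase by the addition of Cdc45 and the GINS complex, and Mcm10 completes the activation. Many of these genes are transcribed under E2F factors, which are held back by the retinoblastoma proteins in cells that are not cycling, and MCM proteins are used in pathology as markers of proliferating cells, prostate cancer included.

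The promoter windows of 5 of the genes are shown before the values. These genes, with Cdc6 left aside, fell in the same comparison, and E2F sites are known in several of the 5. The Cdc6 call is no test, as given below. The sequences are from RefSeq (GRCm38.p6), each 300 bases from 250 before to 50 after the annotated start, read 5′ to 3′ on the gene's strand. Mcm5 was chosen for the largest fall, Mcm6 for the most E2F-type matches, Cdc6 and Cdt1 as the loaders, and Cdc45 as a gene with no such match. Capitals mark E2F-type sites, searched on both strands as TTTGGCGC, TTTCCCGC, TTTCGCGC and TTTGCCGC and their reverse complements. The windows lie at chr8:75109259-75109558 on the plus strand (Mcm5), chr1:128359656-128359955 on the minus strand (Mcm6), chr11:98907901-98908200 on the plus strand (Cdc6), chr8:122567765-122568064 on the plus strand (Cdt1) and chr16:18811923-18812222 on the minus strand (Cdc45).
Mcm5: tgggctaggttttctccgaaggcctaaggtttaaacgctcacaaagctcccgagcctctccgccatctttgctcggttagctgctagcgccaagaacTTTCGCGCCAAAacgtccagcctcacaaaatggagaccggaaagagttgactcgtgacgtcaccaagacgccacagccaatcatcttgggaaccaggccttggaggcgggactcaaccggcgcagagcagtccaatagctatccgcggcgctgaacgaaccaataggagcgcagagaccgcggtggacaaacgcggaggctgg
Mcm6: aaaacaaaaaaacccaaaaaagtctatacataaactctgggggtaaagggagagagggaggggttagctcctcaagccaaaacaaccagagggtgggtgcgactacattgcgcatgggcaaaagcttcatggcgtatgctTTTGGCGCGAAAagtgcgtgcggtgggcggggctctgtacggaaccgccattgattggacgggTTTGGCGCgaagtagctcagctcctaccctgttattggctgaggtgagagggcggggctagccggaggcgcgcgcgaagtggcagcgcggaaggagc
Cdc6: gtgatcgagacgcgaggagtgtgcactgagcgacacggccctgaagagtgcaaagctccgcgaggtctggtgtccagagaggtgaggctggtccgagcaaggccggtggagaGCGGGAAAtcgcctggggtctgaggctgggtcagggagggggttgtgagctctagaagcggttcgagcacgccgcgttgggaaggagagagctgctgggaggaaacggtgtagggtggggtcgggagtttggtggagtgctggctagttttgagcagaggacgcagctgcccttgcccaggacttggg
Cdt1: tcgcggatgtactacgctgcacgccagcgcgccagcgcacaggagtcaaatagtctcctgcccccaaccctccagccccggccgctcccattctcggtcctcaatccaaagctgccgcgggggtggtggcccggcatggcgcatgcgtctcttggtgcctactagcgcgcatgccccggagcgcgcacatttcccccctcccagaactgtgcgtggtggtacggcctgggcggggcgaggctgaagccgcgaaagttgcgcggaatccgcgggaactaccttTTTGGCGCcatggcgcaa
Cdc45: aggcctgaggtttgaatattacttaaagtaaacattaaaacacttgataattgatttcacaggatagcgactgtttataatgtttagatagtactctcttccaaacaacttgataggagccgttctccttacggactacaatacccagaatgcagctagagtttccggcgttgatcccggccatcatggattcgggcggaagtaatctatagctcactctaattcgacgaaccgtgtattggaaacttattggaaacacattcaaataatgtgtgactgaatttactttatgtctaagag

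The 10 windows found for the members cover all of them except Mcm4, with 2 windows for Mcm7. Of these, 6 of 10 held an E2F-type site (60.0%), against 744 of 32851 windows in the whole table (2.26%). The sites stood in Mcm3, Mcm5, Mcm6, 1 of the Mcm7 windows, Cdc6 and Cdt1. The Mcm10 window ends in tttggcg, the start of a searched sequence, so a match across its edge could not be read. In Mcm5 a pair of overlapping sites on opposite strands lay between -153 and -142 from the start, and in Mcm6 such a pair lay between -110 and -99, with a further site at -47 to -40. In Cdt1 the single site lay after the start, at 33 to 40, and in Cdc6 the single site lay at -138 to -131. CCAAT boxes (CCAAT or ATTGG), the element bound by NF-Y, stood in 8 of 10 member windows (80.0%), against 37.4% of all windows. The cell cycle homology element searched as TTTGAA on both strands stood in 2 of 10 windows (20.0%), against 17.9% of all windows. In the Mcm7 window with E2F-type sites, the site at 17 to 24 shares a base with a CCAAT box at 24 to 28. A match is a description of the letters and not a shown binding site, and the windows of the whole table were not matched to the members in base composition.

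**Figure D1:**
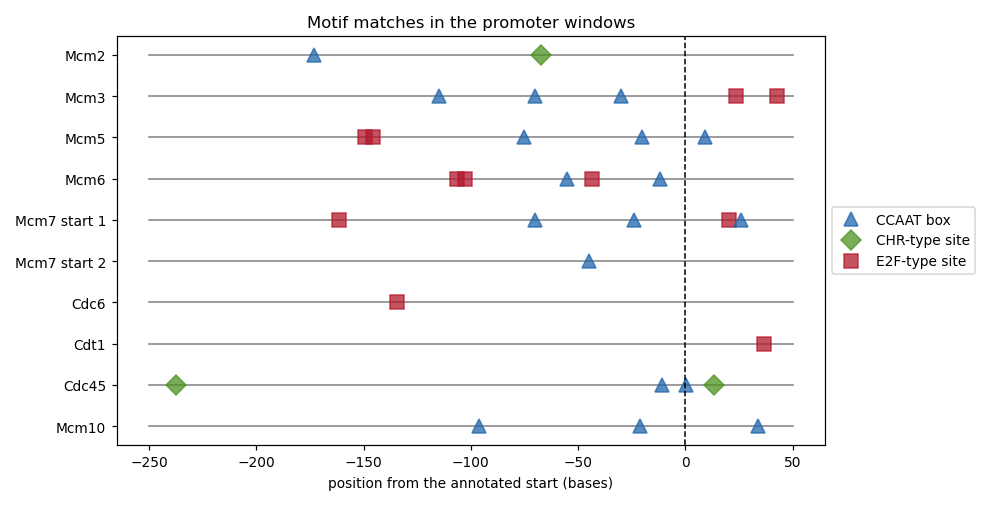
Motif matches in the promoter windows of the members, by position from the annotated start in bases (horizontal axis). Squares are E2F-type sites, triangles CCAAT boxes and diamonds TTTGAA elements. E2F-type sites stand in 6 of 10 windows and CCAAT boxes in 8 of 10.

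The arrays gave background-subtracted intensities, and levels below are normalised log2 values per probe. Between 20323 and 20671 probes were above background on the RAPPD arrays and between 20447 and 21330 on the vehicle arrays. Across the 21249 tested probes, which are not independent replicates, pairs of RAPPD arrays correlated at Pearson's r of 0.970 to 0.984, pairs of vehicle arrays at 0.958 to 0.975 and pairs of unlike arrays at 0.912 to 0.950. The arrays lay on 3 chips: all 4 RAPPD arrays and vehicle 3 shared a chip, and vehicle 1 and vehicle 2 had a chip each. Vehicle 2 stood apart in skeletal muscle transcripts, with a summed intensity over 12 markers of 94300, against 165 to 282 on the RAPPD arrays and 48.5 to 291 on the other vehicle arrays. The tissue label was borne out in part. Krt8, a keratin of luminal epithelium, was above background on every array, whereas Epcam, Krt5, Cldn4 and Esrp1 of the 10 epithelial markers and the prostate genes Pbsn, Tmprss2 and Hoxb13 were above background on 0 of 7 arrays.

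Transcripts of 9 of the 10 genes, all but Cdc6, were lower in RAPPD tumours, each by a probe whose test could have gone either way. Of the 23 probes, 14 were above background on at least 3 arrays and were tested. The Cdc6 probe among them passed this filter through the vehicle arrays alone, so it had to differ, and its call is no test. The other 13 probes, of 9 genes, each fell (limma, adjusted p at most 0.00387). Among them, Mcm6 ILMN_1217331 and Mcm10 ILMN_2679464 were above background on 2 of 4 RAPPD arrays each. They passed the filter only with the help of vehicle arrays, so the filter favoured their falls. Both genes also fell by a probe above background on all 7 arrays. Counts and medians of the 13 probes, here and below, include both dim probes. Over all tested probes 11.0% fell, 10.9% rose and 22.0% were called in either direction. The differences of the 13 probes ran from -4.29 for Mcm5 to -1.02 for Cdt1 on the log2 scale, with a median of -2.51, beside a median of 0.024 over all tested probes. The RAPPD and vehicle groups did not overlap for any of the 13 probes, which held in the same direction for 16.2% of all tested probes. With Cdc6 included, all 14 were above background on all 3 vehicle arrays and 10 of them on all 7 arrays. In whole tumours, fewer cells that express a gene and less RNA per cell cannot be told apart.

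**Figure D2:**
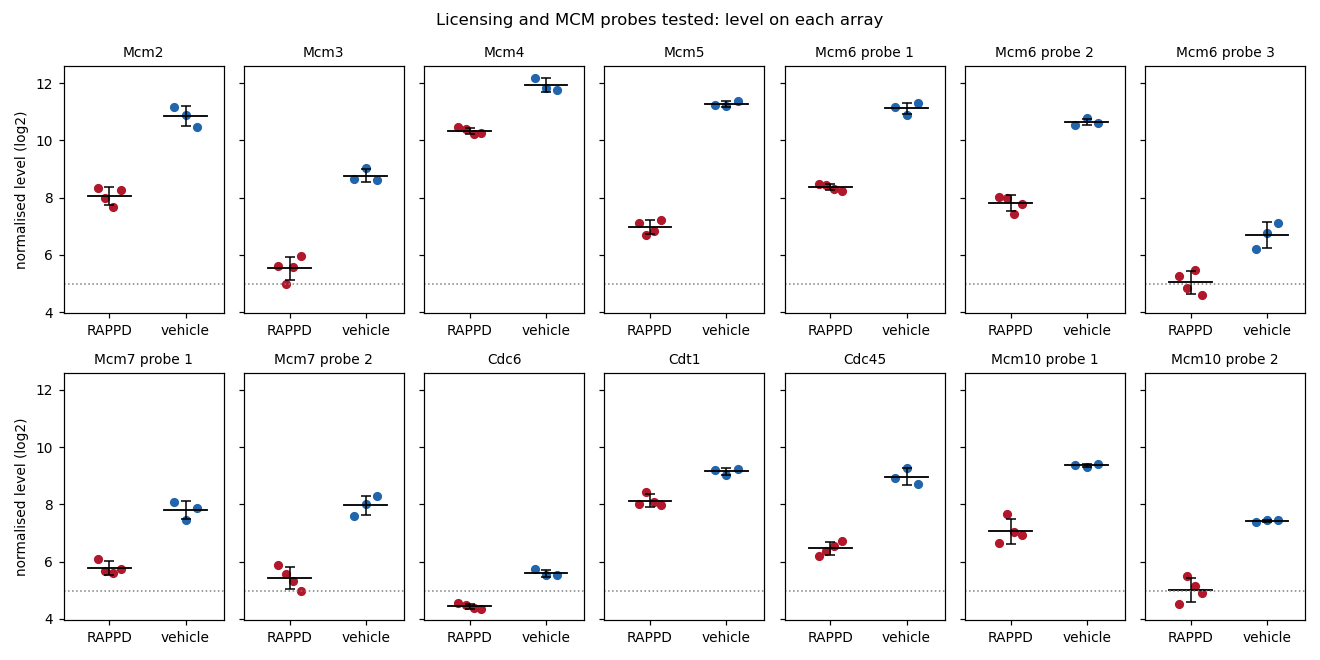
Normalised level (log2, vertical axis) of each tested probe on each array, with RAPPD arrays (4, red) left of vehicle arrays (3, blue) in every panel. Horizontal bars are group means, error bars 1 SD and the dotted line the mean level at which probes were above background; the groups do not overlap in any panel, and the RAPPD arrays of Cdc6 all lie below the line.

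Mcm5, a subunit of the ring, had the largest fall of the 10 genes. Its probe ILMN_2742849 read 126, 90.1, 99.0 and 134 intensity units on RAPPD 1 to 4, against 2370, 2320 and 2590 units on vehicle 1 to 3. On the log2 scale the levels were 7.12, 6.70, 6.82 and 7.23 in RAPPD tumours and 11.23, 11.19 and 11.37 in vehicle tumours. The groups were far apart, with a gap of 3.96 between the highest RAPPD and the lowest vehicle array, while the spread within a group was at most 0.52. The log2 difference of Mcm5 was -4.29 ± 0.18 (SE, 4 RAPPD and 3 vehicle arrays), a 19.6-fold lower level, with adjusted p = 2.15e-06 (limma). Of 21249 tested probes, 25 had a lower difference.

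Mcm3, whose protein pairs with Mcm5 in the ring, followed. Its probe ILMN_2851040 stood at 5.60, 4.99, 5.57 and 5.97 in RAPPD tumours and at 8.64, 9.02 and 8.62 in vehicle tumours. RAPPD 2 was not above background, so the floor may limit the size of the fall. Mcm3 fell by 3.23 ± 0.24 on the log2 scale, or 9.37-fold (adjusted p = 3.49e-05, limma). Mcm2, whose protein also holds histones at the fork and is a main substrate of Cdc7, stood at 8.34, 7.97, 7.66 and 8.25 in RAPPD tumours and at 11.18, 10.87 and 10.48 in vehicle tumours. Vehicle 3 was the lowest vehicle array and still lay 2.14 above the highest RAPPD array. Mcm2 fell by 2.79 ± 0.23, or 6.90-fold (adjusted p = 6.86e-05, limma).

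Mcm6, a subunit of the catalytic core of the ring with Mcm4 and Mcm7, was read by 4 probes. The brightest, ILMN_2803399, stood at 8.49, 8.45, 8.31 and 8.24 in RAPPD tumours and at 11.17, 10.90 and 11.29 in vehicle tumours. The probe ILMN_1233857 stood at 8.03, 7.97, 7.41 and 7.78 in RAPPD tumours and at 10.55, 10.77 and 10.61 in vehicle tumours. These 2 probes gave differences of nearly the same size, -2.75 ± 0.17 and -2.85 ± 0.19 (adjusted p = 1.05e-05 and 1.85e-05, limma). The third tested probe, ILMN_1217331, was dimmer, at 5.25, 4.85, 5.46 and 4.58 in RAPPD tumours and 6.21, 6.75 and 7.12 in vehicle tumours. RAPPD 1 and RAPPD 3 alone of the RAPPD arrays were above background, and its difference of -1.66 ± 0.28 was smaller (adjusted p = 0.00324, limma). The fourth, ILMN_1236125, was above background on RAPPD 1 alone and was not tested.

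Mcm4, the third subunit named for the catalytic core, was read by 3 probes, of which 1 was tested. Its probe ILMN_2936427 stood at 10.45, 10.38, 10.21 and 10.26 in RAPPD tumours and at 12.19, 11.84 and 11.74 in vehicle tumours, or 1160 to 1390 intensity units in RAPPD tumours and 3390 to 4680 in vehicle tumours. The groups did not overlap, and both stayed far above background. Mcm4 fell by 1.60 ± 0.17, or 3.03-fold (adjusted p = 3.66e-04, limma). Its other 2 probes were above background on 0 RAPPD arrays and on 2 and 1 vehicle arrays, and were not tested. Mcm7, a ring subunit whose gene hosts a microRNA cluster, was read by 2 probes. The probe ILMN_1213616 stood at 6.11, 5.67, 5.59 and 5.75 in RAPPD tumours and at 8.07, 7.47 and 7.86 in vehicle tumours, a difference of -2.02 ± 0.21. The probe ILMN_2673889 stood at 5.89, 5.57, 5.31 and 4.98 in RAPPD tumours and at 7.61, 8.0 and 8.29 in vehicle tumours, a difference of -2.53 ± 0.25. Both Mcm7 probes fell (adjusted p = 2.53e-04 and 2.16e-04, limma), and the vehicle arrays were ordered differently by the probes. For ILMN_2673889, RAPPD 4 lay at the limit of background on that array, 4.98, so the floor may limit its difference.

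How far the ring subunits fell relative to each other depended on the scale for the dimmer probes. Relative to Mcm4 within the same array, the change of the log2 ratio between RAPPD and vehicle tumours was -2.69 for Mcm5, while that ratio ranged over 0.65 within the RAPPD group and 0.60 within the vehicle group. The change was -1.19 for Mcm2, -1.15 for the brightest Mcm6 probe and -1.63 for Mcm3, with no overlap between the groups for any of these. For the brighter Mcm7 probe it was -0.42, and the groups overlapped. In the submitters' processed values Mcm5, Mcm2 and the brightest Mcm6 probe also differed by more than Mcm4, at -2.70, -1.94 and -2.04, beside -1.48 for Mcm4. The dimmest tested Mcm6 probe, at -1.66 on the normalised scale, lay close to Mcm4. The order turned for Mcm3, and for Mcm7, whose ratio did not separate the groups. Their normalised differences, -3.23 for Mcm3 and -2.02 and -2.53 for Mcm7, were larger in size than that of Mcm4, -1.60. In the submitters' processed values they were -1.03 for Mcm3 and -0.52 and -0.64 for Mcm7. Mcm4 was taken as the base after its values were seen, so these changes carry no test.

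**Figure D3:**
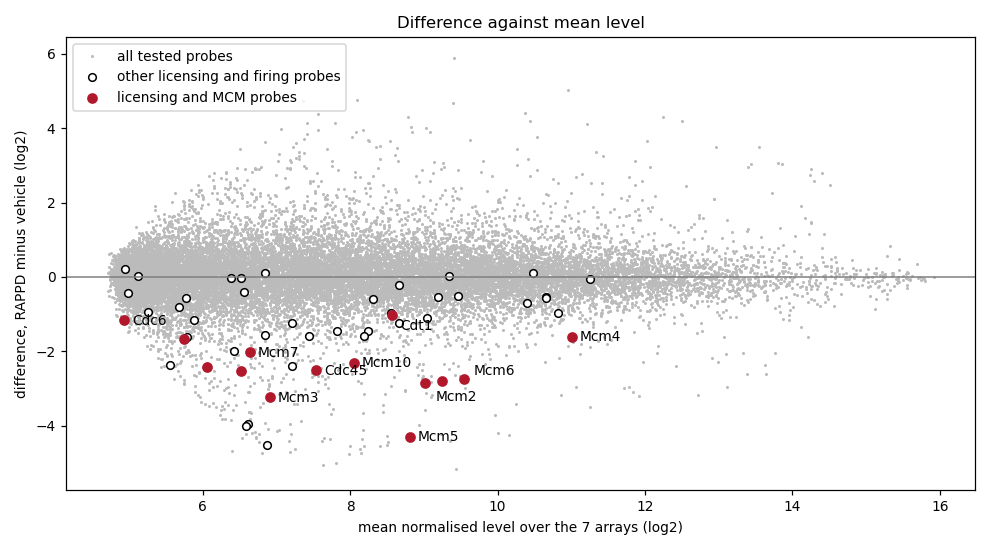
Difference between RAPPD and vehicle tumours (log2, vertical axis) against the mean level over the 7 arrays (log2, horizontal axis) for all tested probes (grey), the 14 licensing and MCM probes (red, the brightest of each gene named) and the other licensing and firing probes (open circles). The red points lie between -4.29 and -1.02.

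Of the loaders, Cdt1 fell and Cdc6 gave only a bound. Cdc6, the ATPase that joins the origin recognition complex to start loading, had 1 tested probe of 4, ILMN_2597255, which stood at 4.54, 4.47, 4.40 and 4.35 in RAPPD tumours and at 5.73, 5.53 and 5.53 in vehicle tumours. It was above background on 0 of 4 RAPPD arrays and 3 of 3 vehicle arrays, with 29.7 to 38.4 intensity units in vehicle tumours. Cdc6 was at least 1.52-fold lower in RAPPD tumours, a bound taken from the vehicle mean and the lowest level above background on the RAPPD arrays, with group means of 4.44 and 5.60. Its other 3 probes were above background on 0 of 7 arrays. Cdt1, which brings the ring to the origin and is destroyed once S phase begins, stood at 8.02, 8.45, 8.10 and 7.98 in RAPPD tumours and at 9.20, 9.02 and 9.24 in vehicle tumours (ILMN_2730463). RAPPD 2 was the highest RAPPD array and lay 0.58 below the lowest vehicle array. Cdt1 fell by 1.02 ± 0.18, or 2.03-fold (adjusted p = 0.00387, limma).

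Both helicase activators fell. Cdc45, which joins the ring at firing, stood at 6.19, 6.39, 6.54 and 6.74 in RAPPD tumours and at 8.92, 9.28 and 8.72 in vehicle tumours (ILMN_2919433). It fell by 2.51 ± 0.20, or 5.68-fold (adjusted p = 5.90e-05, limma), and its other probe was above background on vehicle 2 alone. Mcm10, the activation factor that despite its name is no ring subunit, had 2 tested probes of 4. The brighter, ILMN_2970532, stood at 6.64, 7.68, 7.03 and 6.92 in RAPPD tumours and at 9.37, 9.32 and 9.40 in vehicle tumours. The vehicle arrays lay within 0.08 of each other, whereas the RAPPD arrays ranged over 1.04 with RAPPD 2 highest. The other, ILMN_2679464, likewise had RAPPD 2 highest and RAPPD 1 lowest in that group, at 4.51, 5.51, 5.15 and 4.89 in RAPPD tumours against 7.40, 7.47 and 7.44 in vehicle tumours. The Mcm10 probes fell by 2.30 ± 0.24 and 2.42 ± 0.23 (adjusted p = 2.83e-04 and 1.83e-04, limma). The dimmer one was above background on RAPPD 2 and RAPPD 3 alone of the RAPPD arrays, so the floor may limit its difference. The remaining Mcm10 probes were above background on 0 of 7 arrays.

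The other 9 probes did not pass the filter. In the fit of all probes without a filter their differences ran from -0.36 for an Mcm4 probe to 0.18 for an Mcm6 probe, and none of the 9 was called (limma, adjusted p at least 0.147). Since these probes lay at or near background, their values are no measure of the genes.

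A fit with a term for each chip rests on vehicle 3 and the 4 RAPPD arrays beside it. In that fit 12 of the 13 probes other than Cdc6, of 8 of the 9 genes, fell and 0 rose, where 4.48% of all tested probes fell and 3.09% rose. The exception was Cdt1, with a difference of -1.10 ± 0.25 (adjusted p = 0.0502, limma), which is as large as on all arrays. Mcm5 differed by -4.41 ± 0.27 in that fit (adjusted p = 0.00135), Mcm4 by -1.42 ± 0.21 (adjusted p = 0.0164) and Cdc45 by -2.25 ± 0.26 (adjusted p = 0.00798). The median over all 14 tested probes was -2.38.

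**Figure D4:**
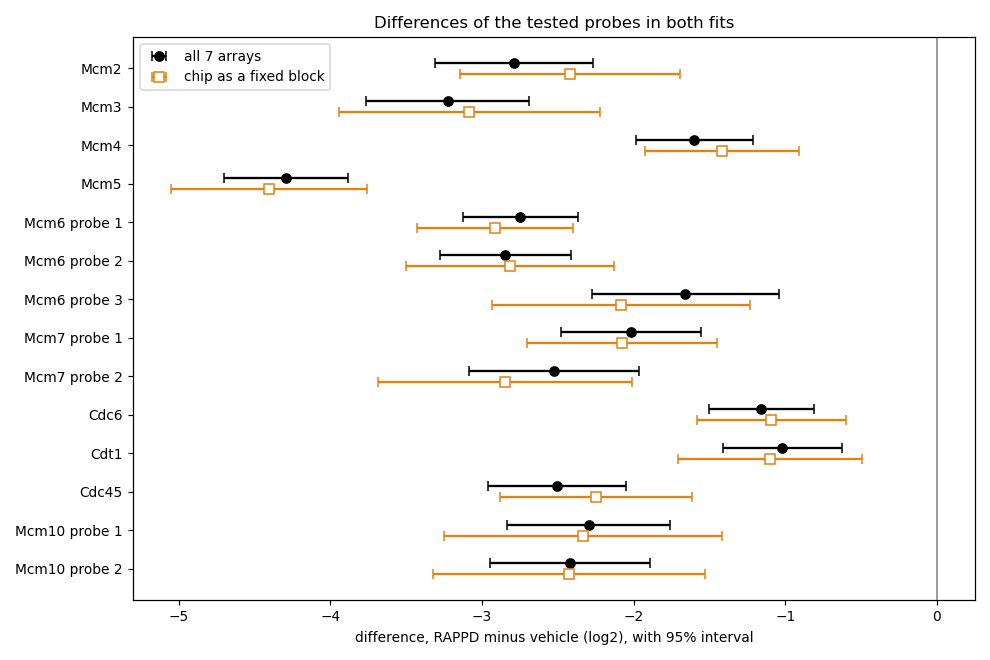
Difference between RAPPD and vehicle tumours (log2, horizontal axis) of each tested probe with its 95% interval (not adjusted over probes), from all 7 arrays (filled circles) and with chip as a fixed block (open squares). All intervals lie below 0 in both fits; the Cdc6 value is a floor-limited difference.

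Within the groups the probes did not share 1 order of arrays. Averaged over the 14 probes, each centred on its own mean, the level was -0.96, -0.97, -1.07 and -1.05 on RAPPD 1 to 4 and 1.35, 1.34 and 1.36 on vehicle 1 to 3. The vehicle arrays differed from each other by 0.02 in this average, although vehicle 1, 2 and 3 were each the lowest vehicle array for 4, 6 and 4 of the probes. RAPPD 1 was the highest RAPPD array for 7 of the 14 probes and the lowest for 3. RAPPD 2 was the lowest for Mcm3 and Mcm5 but the highest for Cdt1 and both Mcm10 probes. Vehicle 2, with its muscle transcripts, was the highest vehicle array for 4 probes and the lowest for 6. Without vehicle 2 the Mcm5 difference was -4.33 and the number of probes that fell was 13 of 13, the Cdc6 probe no longer passing the filter.

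Summed markers of neutrophils, red blood cells and epithelium did not overlap between the groups, whereas those of fibroblasts, macrophages and endothelium did. For the counts of called markers below, 11.0% of all tested probes fell and 10.9% rose. Summed intensities of 12 neutrophil markers were 45400 to 110000 in RAPPD tumours and 6600 to 26200 in vehicle tumours, and 10 of the 12 rose. Those of 6 red blood cell markers were 75100 to 170000 in RAPPD tumours and 15800 to 32400 in vehicle tumours, with 5 of 5 tested markers called higher and Epb42 above background on 0 arrays. Epithelial markers summed to 3300 to 10600 in RAPPD tumours and 17400 to 29100 in vehicle tumours, where 3 of 6 tested markers fell (Krt8, Krt18 and Cldn7). Krt19, Krt14 and Cdh1 were not called (adjusted p = 0.3, 0.11 and 0.926, limma). Krt8 was the brightest on every array and weighs most in the sum. Krt19 overlapped between the groups, at 7.76 to 11.50 on RAPPD arrays and 7.98 on vehicle 3. Fibroblast markers summed to 58400 to 89200 in RAPPD tumours and 43600 to 62900 in vehicle tumours, with 3 of 10 higher and 1 lower. Macrophage markers summed to 33900 to 44600 in RAPPD tumours and 30300 to 50400 in vehicle tumours, and endothelial markers to 2310 to 3540 in RAPPD tumours and 2700 to 3170 in vehicle tumours, with 1 lower in each list and 0 higher. RAPPD 1 had the lowest neutrophil and red blood cell sums of the RAPPD arrays and the highest epithelial sum, while its average over the 14 licensing and MCM probes was -0.96, beside -1.07 to -0.97 on the other RAPPD arrays. Over the 9 ring probes alone RAPPD 1 stood higher, at -0.91 against -1.23 to -1.16 on the other RAPPD arrays. The part of cell composition in the falls was not tested.

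Other genes of licensing and origin firing fell as well, in counts that differed by role. Of 32 listed genes with 69 probes, 26 genes had a tested probe, and 25 of their 38 tested probes fell, 0 rose and 13 were not called, where 11.0% of all tested probes fell. Recql4 passed the filter through the vehicle arrays alone, and without it 24 of 37 fell. The tested Clspn probes and the Gins3 probe were above background on 1 or 2 RAPPD arrays. They passed only with the help of vehicle arrays and are still among the 24. With chip as a fixed block 12 of the 38 fell, or 11 of the 37 without Recql4, where 4.48% of all tested probes fell. The median of the 38 was -0.88. Of the origin recognition complex, which marks origins, 4 of 7 tested probes fell, for Orc3, Orc4 and Orc5, with a median over the 7 of -0.55. The Orc4 probe had the largest difference of that complex, at -0.81 ± 0.24 (adjusted p = 0.0411, limma), and the Orc2 probe the smallest, at 0.21 ± 0.19 (adjusted p = 0.465). None of the 7 was called with chip as a fixed block, where the median was -0.52, and 7 of the 18 alternatives that tested the Orc4 probe kept its call.

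Genes of origin firing fell at most of their tested probes, where 11.0% of all tested probes fell, and 4.48% with chip as a fixed block. All 6 tested probes of GINS, the complex that joins Cdc45 on the ring, fell, from -0.69 ± 0.15 for Gins4 to -2.40 ± 0.24 for Gins1 (adjusted p = 0.012 and 2.18e-04, limma). The Gins3 probe, above background on 1 RAPPD array, passed the filter only with the help of vehicle arrays. With chip as a fixed block 2 of the 6 fell, Gins1 and 1 of the 3 Gins2 probes, and Gins4 lay at -0.54 (adjusted p = 0.149). The firing kinase Cdc7 stood at 7.58, 7.75, 7.52 and 7.62 in RAPPD tumours and at 9.21, 8.85 and 9.16 in vehicle tumours. Its activating partner Dbf4 stood at 7.47, 7.50, 7.73 and 7.33 in RAPPD tumours and at 9.17, 9.14 and 8.94 in vehicle tumours. The differences were -1.46 ± 0.17 for Cdc7 and -1.58 ± 0.17 for Dbf4, with no overlap between groups (adjusted p = 4.53e-04 and 3.29e-04, limma). Both also fell with chip as a fixed block. Of the firing factors other than Recql4, 4 of 6 tested probes fell, for 2 genes, Mtbp and Topbp1. With chip as a fixed block 3 fell, all for the 1 gene Mtbp. Recql4, a helicase-family protein needed at firing, was above background on 0 of 4 RAPPD arrays and was at least 3.76-fold lower, a call that the filter fixed, while Donson differed by -0.40 ± 0.19 (adjusted p = 0.171).

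Of the proteins that couple the helicase to the polymerases and to the checkpoint, 6 of 7 tested probes fell, and 4 with chip as a fixed block. Over all tested probes the shares were 11.0% and 4.48%. Clspn (claspin), the adaptor of the checkpoint kinase Chk1, had the largest difference of the list, -4.51 ± 0.28 by its brightest probe (adjusted p = 1.13e-05, limma), with 4.66, 4.84, 5.66 and 4.57 in RAPPD tumours and 9.80, 9.23 and 9.31 in vehicle tumours. Of the RAPPD arrays only RAPPD 3 was above background, which limits how large a fall could be read. The other tested Clspn probes, above background on 2 of 4 RAPPD arrays each, also fell, so several of the 6 falls were of this gene. All tested Clspn probes passed the filter only with the help of vehicle arrays, so the filter favoured their falls. The smallest difference of the role was that of a dim Tipin probe, at 0.018 ± 0.29 (adjusted p = 0.975). The brighter Tipin probe fell by 0.96 ± 0.17 (chip as a fixed block, -0.74, adjusted p = 0.103). The ring-binding protein Mcmbp had 1 of 2 tested probes lower, at -0.56 ± 0.17 (adjusted p = 0.0406), with the other at -0.23 ± 0.19. That call was lost in 8 of 19 alternatives, among them chip as a fixed block (-0.39, adjusted p = 0.32) and 6 of the 7 fits without 1 array. The dimness of Mcm8, Mcm9 and Mcmdc2 kept them untested.

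Of the genes that end licensing, 1 of 5 tested probes was called, and of the chromatin cofactor Kat7, 0 of 2. Over all tested probes 22.0% were called in either direction, and so few probes cannot be set apart from that share. Geminin (Gmnn), the inhibitor of Cdt1, and Dtl, the substrate receptor of the ligase that destroys Cdt1, were above background on 0 of 7 arrays by their probes. In the same ligase, the scaffold Cul4b fell by 0.95 ± 0.22 (adjusted p = 0.0143, limma), but its call was lost in the fit with a term for each chip, at -0.73 (adjusted p = 0.179), and without vehicle 1, at -0.78 (adjusted p = 0.0618). The probe of Cul4a with the smallest difference lay at -0.017 ± 0.24 (adjusted p = 0.971). The acetyltransferase Kat7, which acts at origins, lay at 0.031 ± 0.16 and -0.033 ± 0.26 by its 2 probes (adjusted p = 0.917 and 0.943).

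**Figure D5:**
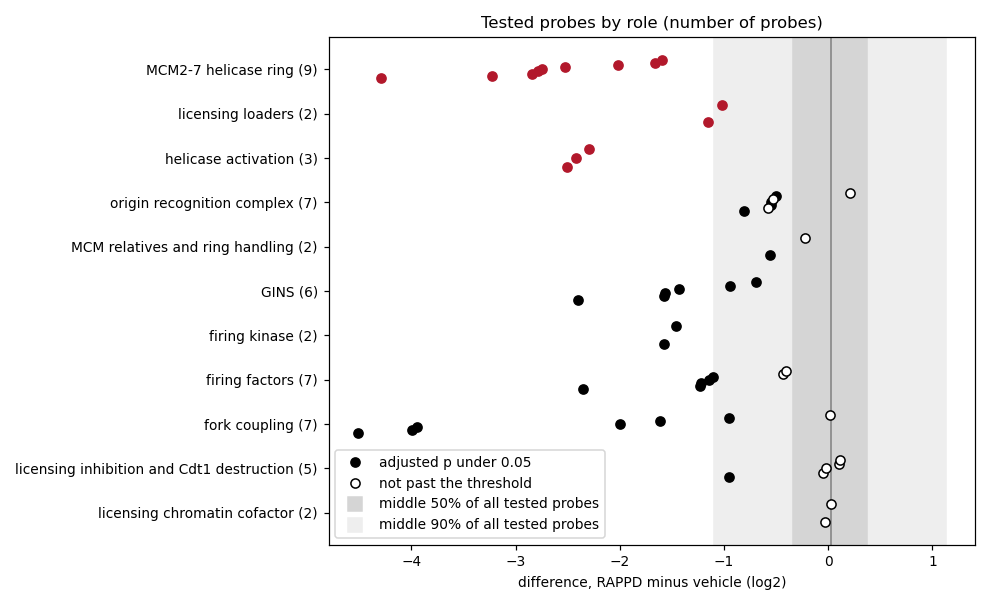
Difference between RAPPD and vehicle tumours (log2, horizontal axis) of every tested probe, by role, with the members in red and other genes of the pathway in black. Filled points passed the adjusted p threshold of 0.05 (limma) and open ones did not; grey bands hold the middle 50% and 90% of all tested probes. The origin recognition complex lies between -0.81 and 0.21, and the ring between -4.29 and -1.60.

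Among 17831 other named and tested probes, those most like the ring were sought by Pearson's r with the mean of the 9 tested ring probes over the 7 arrays. The 5 highest were H2az1, a histone variant (r = 0.9994), Zkscan3, a zinc-finger factor (r = 0.999), Smc4, a condensin subunit (r = 0.9985), Bub1b, a spindle checkpoint protein (r = 0.9984), and Top2a, the topoisomerase of dividing cells (r = 0.9984). Their differences were -1.38, -1.17, -2.31, -4.10 and -4.26. The points share the group difference, and such values over 7 arrays describe these samples only.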

How the data were processed

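Total RNA of 7 tumours was labelled with biotin and hybridised to Illumina bead arrays, 1 array per sample. The deposited table holds 1 background-subtracted intensity per probe and array on a linear scale, with 28.8% to 30.3% of values below 0 and no detection p-values. BeadStudio and lumi are named without versions or roles in the submitters' processing notes. A further deposited table holds the submitters' processed values, read as log2-like, whose exact transform stays unknown. They followed the order of the intensities within each array (rank correlation at least 0.9999935), with medians of 8.021 to 8.022 on RAPPD and 8.023 to 8.025 on vehicle arrays.

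Intensities were corrected by normexp with a background mean of 0 and an SD estimated per array from the negative values (8.41 to 9.35), given an offset of 16, quantile normalised and taken to log2. A probe above the upper 0.05 tail of that background was called above background, and probes so called on at least 3 arrays were tested. limma 3.58.1 (R 4.3.3) compared RAPPD with vehicle, two-sided, and p-values were adjusted by Benjamini-Hochberg across the 21249 tested probes and a threshold of 0.05. Errors after differences are SE with n = 4 RAPPD and 3 vehicle arrays, and the number of arrays limits the precision.

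Probes were named through GEO's platform annotation: 34776 had 1 symbol, 18 had several and 10334 were unnamed. Entrez identifiers matched a RefSeq table of GRCm38.p6 for 99.78%. The build behind the array design was not given in the sources used here. Marker lists use the brightest probe of each gene, and 5 listed markers were not analysed here. Every probe of the 10 genes is reported. Of the pathway list, the largest and smallest difference in each role, small role groups, Gmnn and Dtl are named. Others, such as the brighter Tipin probe, were named after their values were seen. Members and lists were chosen with earlier results of these data known. Replicate numbers are names only. Tested on simulated data of the RAPPD against vehicle comparison with 21249 probes, the fit called 38% of 2-fold and 88% of 4-fold changes, and 4.55% of calls fell on unchanged probes. The simulation changed 200 probes, all among the brighter ones, and drew independent noise with no chip effect. Its rates need not hold for dim probes or for the real arrays, where 22.0% of tested probes were called. Alternatives covered offset, background, normalisation, filter, unit, variance model, chip and each array left out.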

Additional observations from a re-analysis of the deposited data

How the results depend on the processing

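All 255 values of the 14 tested licensing and MCM probes under the 19 alternatives were below 0, and 1 of them lost its call, Cdt1 with chip as a fixed block. The Cdc6 probe gave 15 of these values, which carry no weight because the filter fixed its fall. It is also in the counts and medians below wherever it passed the filter. The number of these probes that fell was 10 of 10 when detection on all 7 arrays was required and 13 to 14 when an array was left out. Their median difference, -2.46, became -1.95 with an offset of 50, -1.02 with the submitters' processed values, which flatten at low intensity, and -1.60 without a filter, where dim probes enter. It was -2.54 to -2.33 with an array left out. For the pathway list, 25 probes fell, against 16 with detection on all 7 arrays, 12 with chip as a fixed block and 16 to 23 with an array left out. Leaving aside Recql4, whose call the filter fixed, 24 of 37 fell, and 11 with chip as a fixed block. The Clspn and Gins3 probes that vehicle arrays helped through the filter are still in the 37. The lowest count with an array left out was without vehicle 1. The median of the pathway list, -0.88, became -0.61 with an offset of 50, -0.38 with the submitters' processed values, -0.25 without a filter, -0.57 with detection on all 7 arrays and -0.66 with chip as a fixed block, and was -1.01 to -0.75 with an array left out. Over all probes 2345 fell and 2325 rose. With 1 probe a gene 1457 fell and 1214 rose, and with chip as a fixed block 951 and 656. Leaving out an array gave 1440 to 2360 that fell and 1443 to 2489 that rose, with the lowest counts without vehicle 1. Fewer probes were tested with 1 probe a gene, and the cause of the shifts was not tested. No paired analysis was possible because replicate numbers were given in the order of the series. Signal over background limited 9 of the 23 licensing and MCM probes to no test.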

Other observations

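A pair of the 10 genes has a neighbour that starts nearby on the opposite strand in the RefSeq table, and those neighbours did not share the falls. Ufd1, a cofactor of the segregase p97, starts 322 bases from Cdc45 and stood at 9.27, 8.93, 8.88 and 8.94 in RAPPD tumours and at 8.55, 8.40 and 8.19 in vehicle tumours. Ufd1 rose by 0.62 ± 0.17 on the log2 scale (adjusted p = 0.0321, limma), while Cdc45 fell by 2.51. Ap4m1, a subunit of an adaptor complex of vesicle traffic, starts 138 bases from the Mcm7 start with E2F-type sites. Its 3 probes lay at 0.37 ± 0.17, 0.55 ± 0.19 and 0.34 ± 0.23 (adjusted p = 0.155, 0.0719 and 0.324, limma), with no call, beside Mcm7 differences of -2.02 and -2.53. These neighbours were looked up after the values of the 10 genes were seen, and the differences between neighbours were not tested.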
